A study of Homo sapiens with 5 samples.

Results

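Described here are 10 of the protein-coding genes with a difference in H4K12la at a gene end. The signal there was listed with dexamethasone and not without it, or stood higher with it. The 10 genes were among 20037 protein-coding genes with a position on chromosomes 1 to 22, X and Y, and they were chosen by these measurements. RSPH10B, PTPRU, PTMS, MBP, AKAP12, SPDYA, FOXH1 and SLC26A5 carried an end peak in each dexamethasone list and in neither control list. AGAP9 and ADAP1 had an end peak in all 4 lists, higher in both dexamethasone lists. A gene end means the window from 1 kb below to 1 kb above the first or last base of the gene, and a peak belonged to it when 1 bp or more overlapped.

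The libraries came from 786-O cells, an established human clear cell renal carcinoma line, profiled by CUT&Tag, in which an antibody tethers a transposase that cuts and tags the DNA nearby. H4K12la, the lactylated lysine of histone H4, was profiled in 2 libraries of cells given 10 µM dexamethasone for 48 h and in 2 libraries of untreated control cells. The glucocorticoid receptor (GR) was profiled in 1 library of dexamethasone-treated cells, with no untreated counterpart used here. All cells were of the same line, and the sample titles name no batch.

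Histone lactylation is an acyl mark derived from lactate that is commonly found at active promoters and enhancers. GR is a nuclear receptor that dexamethasone, a synthetic glucocorticoid, activates, and that binds DNA near genes it regulates. The 10 genes share no pathway. RSPH10B encodes a radial spoke protein of motile cilia and PTPRU a receptor tyrosine phosphatase. PTMS encodes parathymosin, an acidic nuclear protein, and MBP a major protein of myelin, with longer transcripts (Golli) from an upstream start. AKAP12 is a scaffold for protein kinases A and C, SPDYA an activator of cyclin-dependent kinases, and FOXH1 a forkhead factor that acts with SMAD proteins in Nodal signalling. SLC26A5 encodes prestin, the motor protein of cochlear outer hair cells. AGAP9 and ADAP1 belong to the GTPase-activating proteins of Arf GTPases.

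The 2 dexamethasone lists used here held 80721 and 67582 peaks and the 2 control lists 126594 and 112409, after removal of other sequences, and the GR list held 8065. Read depth is unknown, so a height, the whole-number signal at a peak's summit as the authors deposited it, is not scaled to depth. Lowest heights were 11 and 12 in the dexamethasone lists and 9 and 10 in the control lists, and median heights 23 and 24 against 24 and 26. Of 8 renal markers, 1 had an end peak in all 4 lists (PAX8, 27 and 18 against 140 and 119) and 4 (PAX2, LRP2, CUBN and AQP1) in none. VIM and CDH16 had one in both control lists and dexamethasone replicate 1, and CA9, a gene typical of clear cell carcinoma, in the dexamethasone lists alone (29 and 26). Of 5 blood and endothelial markers 2 (PTPRC and PECAM1) were at 0 throughout, CD79B had 16 and 14 in controls alone, CDH5 had 19 and 26 against none and 19, and CD3E had 14 in control replicate 2. Of 2 other epithelial markers KRT5 was at 0 and EPCAM dexamethasone-only (13 and 20). What part cell identity has in the results below was not tested.

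Since the members were chosen on the H4K12la contrast, their heights are a description, with no test. Over all protein-coding genes 0.764% (153 of 20037) were dexamethasone-only by the same rule, against 8 of the 10 genes here. Ranked by the mean percentile of the end peak in its list, the 8 genes held places 1, 2 and 4 to 9 of the 153. Where all 4 lists held an end peak (4737 genes), 5.53% (262) had both dexamethasone heights above both control heights, the rule that AGAP9 and ADAP1 met. By the ratio of mean heights AGAP9 was at place 103 and ADAP1 at place 164 of the 262, and by mean dexamethasone height at places 13 and 22.

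**Figure D1:**
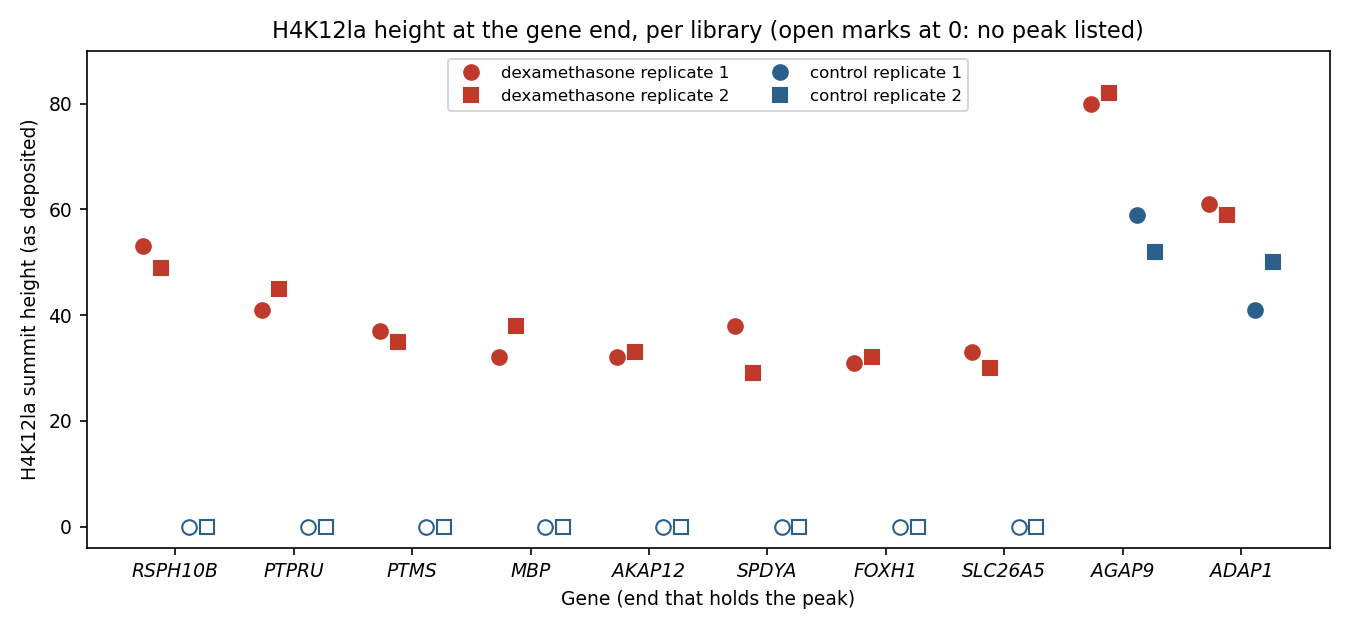
Summit height (as deposited) of the H4K12la peak at the gene end that holds it, for the 10 genes, with 1 mark per library (dexamethasone left, control right; circles replicate 1, squares replicate 2). Open marks at 0 stand for no listed peak; the 8 dexamethasone-only genes lie between 29 and 53, while AGAP9 and ADAP1 have marks in all 4 libraries.

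The dexamethasone-only end peaks were of middling to high rank in their lists. Over the 8 genes, heights ran between 31 and 53 (median 35) in dexamethasone replicate 1 and between 29 and 49 (median 34) in dexamethasone replicate 2. The table of promoters gives a strand for 6 of the 10 genes. For RSPH10B and SPDYA the peak lay at the start of transcription, and for PTPRU, MBP, AKAP12 and ADAP1 at the end of transcription. PTMS, FOXH1, SLC26A5 and AGAP9 have no entry there, so their peaks are placed at the lower or higher coordinate only.

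Peaks at the start of transcription were seen at RSPH10B and SPDYA. The reference sequences of these starts are shown 5′ to 3′ along the gene, 250 bases before to 50 after the start, from RefSeq on GRCh38.p14, because the dexamethasone peak reaches into them. A start of AKAP12, where the control peak was the higher one, is set beside them. Capitals mark the bases inside the peak of dexamethasone replicate 1.
RSPH10B (chr7:5970640-5970939, minus strand): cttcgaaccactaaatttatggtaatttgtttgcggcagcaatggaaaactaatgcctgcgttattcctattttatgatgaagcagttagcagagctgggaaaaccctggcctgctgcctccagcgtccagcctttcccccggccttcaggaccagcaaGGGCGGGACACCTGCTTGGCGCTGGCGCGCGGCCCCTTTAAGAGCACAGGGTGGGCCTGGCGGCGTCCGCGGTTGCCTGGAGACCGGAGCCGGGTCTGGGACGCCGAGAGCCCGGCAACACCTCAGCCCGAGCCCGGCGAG
SPDYA (chr2:28810584-28810883, plus strand): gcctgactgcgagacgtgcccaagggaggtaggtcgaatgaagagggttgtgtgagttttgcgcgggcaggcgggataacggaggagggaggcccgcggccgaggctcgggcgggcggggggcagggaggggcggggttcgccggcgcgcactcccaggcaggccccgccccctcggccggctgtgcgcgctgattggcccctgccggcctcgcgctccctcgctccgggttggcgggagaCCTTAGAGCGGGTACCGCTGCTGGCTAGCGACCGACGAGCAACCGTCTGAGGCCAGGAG
AKAP12 second start (chr6:151325281-151325580, plus strand): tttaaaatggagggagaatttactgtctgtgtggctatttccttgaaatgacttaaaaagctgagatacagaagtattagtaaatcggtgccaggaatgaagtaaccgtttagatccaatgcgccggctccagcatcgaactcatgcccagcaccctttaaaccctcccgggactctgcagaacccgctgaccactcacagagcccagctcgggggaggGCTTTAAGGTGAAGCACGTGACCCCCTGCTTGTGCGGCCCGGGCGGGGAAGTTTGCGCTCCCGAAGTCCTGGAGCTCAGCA

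RSPH10B (gene ID 222967, chromosome 7, 5926136 to 5970851, minus strand) had the highest end peaks of the 8 genes. The peak at its start had a height of 53 in dexamethasone replicate 1 and 49 in dexamethasone replicate 2, with none in control replicate 1 or control replicate 2. These heights stood at percentiles 97.1 and 95.4 of their lists. The peaks spanned 5969940 to 5970780 and 5969876 to 5970732, inside the gene's listed span. They crossed the start of transcription in the promoter printed above and lay mostly downstream of it. They covered 141 and 93 of the promoter's 300 bases. No control peak overlapped them.

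The surroundings of RSPH10B are duplicated. The nearest control peaks to the gene's higher-coordinate end were 2894 bp away in replicate 1 and 1141 bp away in replicate 2 (height 33). The same window is within reach of the last bases of PMS2, a DNA mismatch repair gene that lies 74 bp above RSPH10B in coordinates and is transcribed from its far end. The far end of PMS2 had no dexamethasone peak, against control heights of 102 and 111. Inside RSPH10B, a region at 5931316 to 5932537 had a height of 31 in dexamethasone replicate 1 and none in dexamethasone replicate 2, against 96 and 90 in controls. RSPH10B2, a near-identical copy on the same chromosome, showed no end peak in either dexamethasone list and up to 31 and 43 in controls. Reads from these copies could have been split or shared between them, so heights at both are uncertain.

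SPDYA (gene ID 245711, chromosome 2, 28810834 to 28850610, plus strand) had its peak at the first of its listed starts. Heights were 38 and 29 in dexamethasone libraries, with no control peak. The peaks spanned 28810825 to 28811410 and 28810916 to 28811327, and the first covered 59 bases of the promoter printed above. Both lay at the start and just downstream of it. The nearest control peaks were 3827 and 10584 bp away, each with a height of 24.

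Across the SPDYA locus, dexamethasone lists held 5 and 3 peaks in the gene and its 20 kb flanks, against 9 and 7 in control lists. A region inside the gene at 28847387 to 28848195 had heights of 33 and 29 with dexamethasone, against 22 and none in controls. Of 14 regions 3 were control-only, where 18% of regions in the genome were, among them one inside the gene at 28844334 to 28844816 with control heights of 25 and 26. At the start of TRMT61B, a tRNA methyltransferase gene that overlaps the far end of SPDYA, the height was 22 in dexamethasone replicate 1, with none in replicate 2, against 63 and 67 in controls.

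The promoter windows were searched on both strands for the GR half-site AGAACA, the full palindromic GR element, which contains it, and the GC box GGGCGG. Of 22199 promoters of the same length, 11.7% held the half-site, 0 the full element and 56.3% the GC box. Of 13 promoters listed for 6 of the genes, 2 held the half-site (1 of MBP and 1 of ADAP1) and 11 the GC box. The RSPH10B start held 1 GC box and 22 CpG and the SPDYA start 4 GC boxes and 35 CpG, beside a median of 21 CpG per promoter, and neither held the half-site.

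At the end of transcription, PTPRU (gene ID 10076, chromosome 1, 29236522 to 29326800, plus strand) had heights of 41 and 45 with dexamethasone and no control peak. The peaks spanned 29325644 to 29326558 and 29325682 to 29326840, with summits at 29326241 and 29326543, inside the gene. The nearest control peaks were 3410 and 7802 bp away. No list held a peak at the PTPRU start, where the nearest dexamethasone peaks were 10933 and 22483 bp away.

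The end peak of PTPRU stood in a gene body with many regions higher with dexamethasone. Of 6 regions in all 4 lists in the gene and its flanks, 5 had both dexamethasone heights above both control heights and none had both below. Over the genome 25.9% of 29445 such regions were higher and 39.4% lower. At 29279425 to 29281139 the heights were 50 and 42 with dexamethasone, against 30 and 30 in controls. At 29288637 to 29291251 they were 48 and 54 against 26 and 34, and at 29297431 to 29298229 they were 25 and 22 against 11 and 11. The groups did not overlap at these positions. A second dexamethasone-only region lay inside the gene at 29271446 to 29272492, with heights of 17 and 19. Upstream, the start of MECR, a mitochondrial fatty acid synthesis gene, lay in a control-only region with heights of 73 and 66.

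MBP (gene ID 4155, chromosome 18, 76978833 to 77133708, minus strand) had heights of 32 and 38 at the end of transcription with dexamethasone and no control peak there. The peaks spanned 76979226 to 76979655 and 76978874 to 76979608. The nearest control peaks to that end were 3012 and 5796 bp away, with heights of 24 and 27.

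Elsewhere in MBP, regions of every class were found. Of 34 regions in the gene and its flanks, 7 were control-only (18% in the genome), 1, the end region, dexamethasone-only, and 9 in all 4 lists. Of those 9, 4 were lower (39.4% in the genome) and 1 higher in both dexamethasone lists, and the heights of the other 4 overlapped. At 77077643 to 77079332 the heights were 27 and 32 with dexamethasone, against 131 and 124 in controls. At 77067269 to 77068711 they were 19 and 18 against 105 and 82, and at 77100460 to 77102804 they were 22 and 28 against 101 and 88. These 3 regions lie toward the upstream start. No list held a peak in the 1 kb window around the gene's higher-coordinate end, 77133708. Control replicate 2 had one of height 60 at 1205 bp from that end, at 77132095 to 77132503. The listed upstream start lies further inside the gene, with its promoter at 77132734 to 77133033. That control peak was within 1 kb of this start. The nearest peak of control replicate 1, of height 59, lay 2206 bp from the higher-coordinate end. The nearest dexamethasone peaks were 3465 and 13446 bp away, with heights of 13 and 34. A control-only region at 77114507 to 77115629 had heights of 89 and 89. The region higher with dexamethasone, at 77005828 to 77010014, lay nearer the end of transcription, with 44 and 47 against 34 and 33.

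AKAP12 (gene ID 9590, chromosome 6, 151239967 to 151358559, plus strand) had heights of 32 and 33 just beyond the end of transcription with dexamethasone. The peaks spanned 151359412 to 151360133 and 151359075 to 151360916. No control peak entered the 1 kb window, but the peak of dexamethasone replicate 2 overlapped control peaks of heights 24 and 21 that began 2172 and 1876 bp from the gene end. Merged, they form 1 region held by all 4 lists and higher in both dexamethasone lists.

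At the second listed start of AKAP12, printed above, the order was the reverse. The height was 22 in dexamethasone replicate 1, with no peak in dexamethasone replicate 2, against 98 and 99 in control replicates 1 and 2. Control peaks covered 300 and 207 of the 300 bases and the dexamethasone peak 81. Near the third start, a region at 151341614 to 151342971 had 41 and 50 with dexamethasone against 41 and 37 in controls, so the groups met at 41. A dexamethasone-only region inside the gene, at 151271704 to 151273139, had heights of 20 and 20. One control-only region lay just past the first start, with control heights of 17 and 13, the nearest peaks 1065 and 1038 bp from it.

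**Figure D2:**
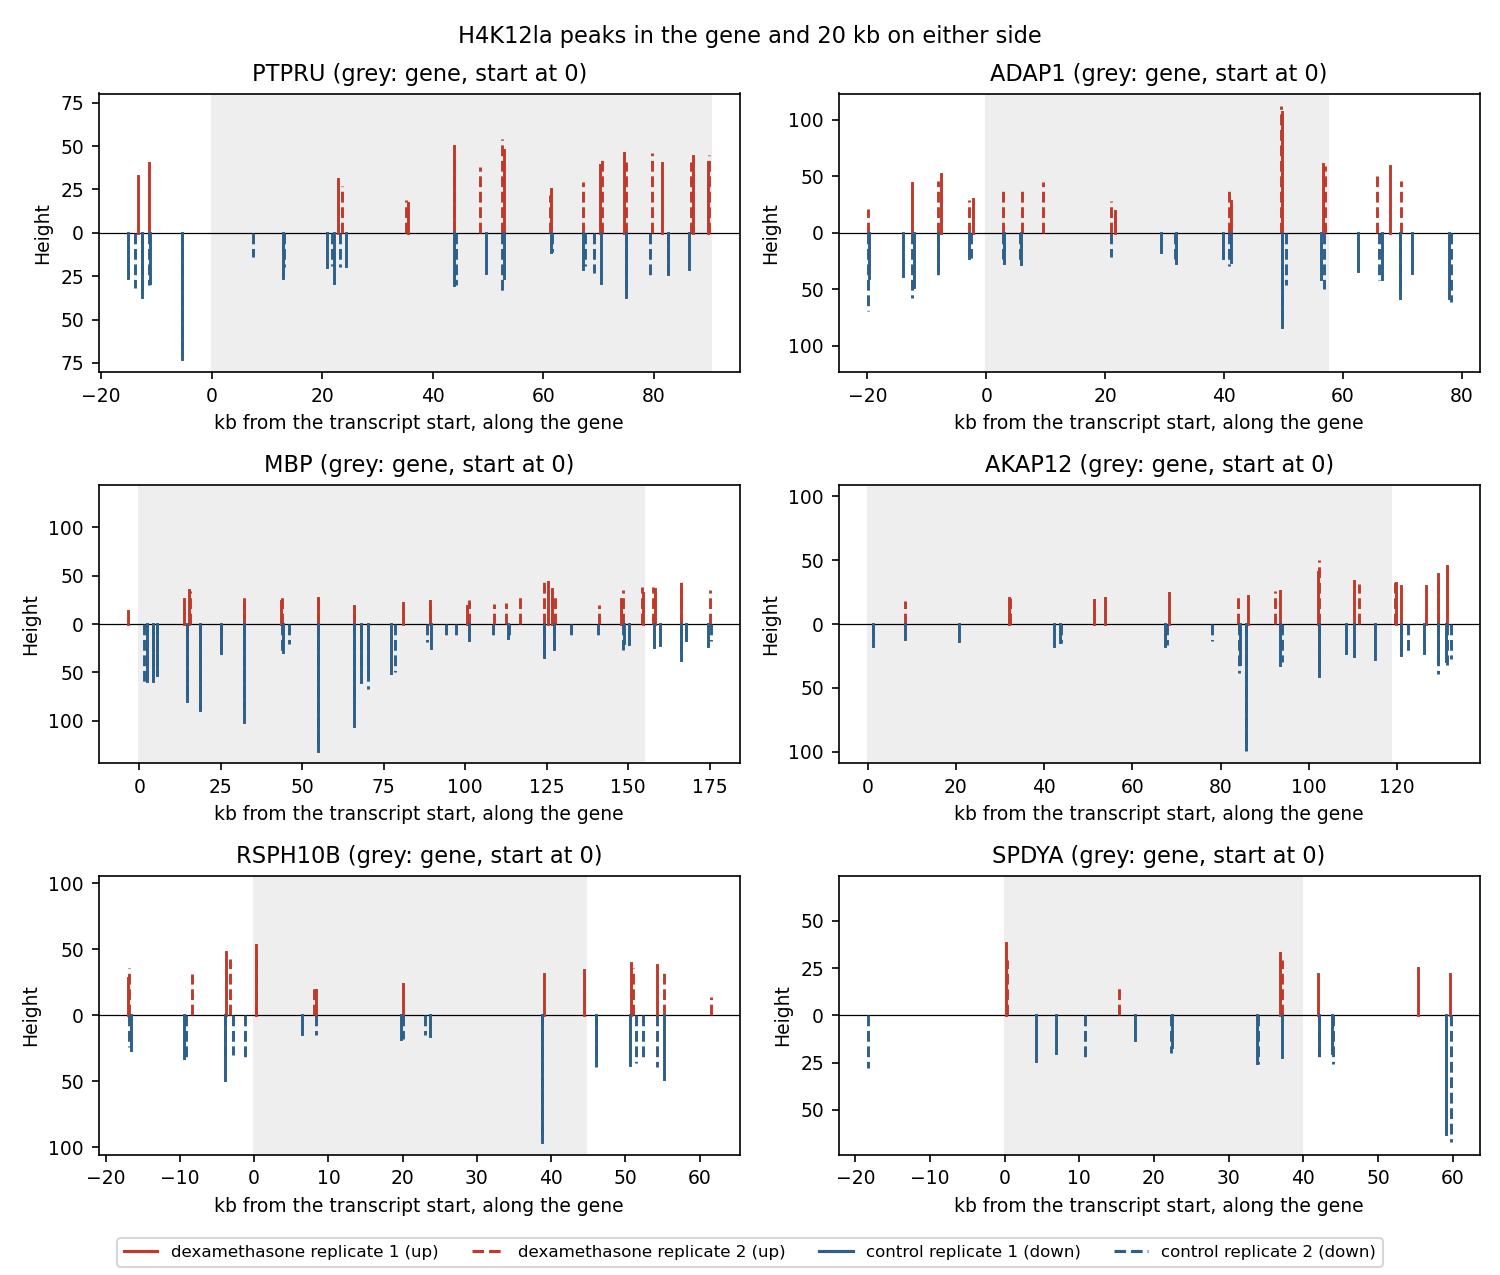
H4K12la peaks in the gene (grey) and 20 kb on either side for the 6 genes with a strand entry, at the distance of their summit from the transcript start in kb, with summit height upward for dexamethasone and downward for control libraries (solid replicate 1, dashed replicate 2). PTPRU and ADAP1 have taller dexamethasone lines toward the end of the gene, while the tallest control lines of MBP, up to 131, lie toward its start.

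Among genes without a strand entry, PTMS (gene ID 5763, chromosome 12, 6766363 to 6770952) had heights of 37 and 35 beyond its higher-coordinate end with dexamethasone. The peaks spanned 6771071 to 6772843 and 6771663 to 6772619, with summits 1277 and 1496 bp past the gene. They reached the lower-coordinate end of LAG3, an immune checkpoint receptor gene 1568 bp from PTMS. A peak of control replicate 1 at LAG3, of height 40, overlapped the peaks of both dexamethasone replicates, with its summit at 6772442 and that of dexamethasone replicate 2 at 6772448, so the merged region was held by both dexamethasone lists and control replicate 1. Within PTMS itself, the region 6767378 to 6769059 was control-only, with heights of 52 and 60. Its edges lay 1043 and 1015 bp from the lower-coordinate end, just outside the window. Control replicate 1 also had a peak 1084 bp from the higher-coordinate end.

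FOXH1 (gene ID 8928, chromosome 8, 144473412 to 144475849) is so short that 1 peak can reach both end windows, as that of dexamethasone replicate 2 did. Its heights were 31 and 32 with dexamethasone, in peaks inside the gene at 144474936 to 144475326 and 144474320 to 144475318. A second peak of height 31 beyond the higher-coordinate end, at 144476503 to 144477030, was in dexamethasone replicate 1 only. KIFC2, a kinesin gene, overlaps the lower end of FOXH1, and the end of KIFC2 there had the same peaks. The nearest control peaks were 2985 bp (height 42) and 1533 bp (height 33) from the higher-coordinate end. No control peak lay inside the gene.

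SLC26A5 (gene ID 375611, chromosome 7, 103352730 to 103446207) had heights of 33 and 30 outside its lower-coordinate end with dexamethasone. The peaks spanned 103350631 to 103351772 and 103350894 to 103351879 and came within 958 and 851 bp of the gene, the closest of the 8 to the 1 kb limit. They lay inside PSMC2, a proteasome ATPase gene that overlaps that end. No control peak was nearer than 4415 and 4318 bp. At the start of PSMC2, 103347380 to 103348117, a control-only region had heights of 115 and 123. At DNAJC2, a ribosome-associated chaperone gene, heights were 36 and 30 with dexamethasone against 137 and 183 in controls.

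AGAP9 (gene ID 642517, chromosome 10, 47501854 to 47523638) had the highest end peaks of the 10 genes. At the higher-coordinate end the heights were 80 and 82 in dexamethasone libraries and 59 and 52 in control libraries, a ratio of means of 1.46. The groups did not overlap. The merged region ran from 47523127 to 47525049, across the gene's higher-coordinate boundary and into an uncharacterised lncRNA that begins 483 bp away. The gene lies within the listed spans of ANXA8, an annexin gene, and of a transcribed pseudogene that joins BMS1P2 and AGAP9. By percentile the heights were at 99.5 and 99.5 of the dexamethasone lists and 90.2 and 85.2 of the control lists.

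At the AGAP9 locus the other 3 regions in all 4 lists were lower in both dexamethasone lists, as were 39.4% of such regions in the genome. The tallest, 47481169 to 47483909, had 43 and 52 with dexamethasone, against 293 and 301 in controls. The others had 53 and 59 against 83 and 68, and 73 and 72 against 114 and 121. AGAP9 belongs to a group of recently duplicated AGAP genes on chromosome 10, so reads may be shared between copies and the heights are uncertain. Among the copies AGAP4 had 31 and 24 with dexamethasone against 18 and 18, AGAP6 88 and 81 against 49 and 104, and AGAP5 42 and 28 against 40 and 51. Of these, the groups did not overlap at AGAP4.

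ADAP1 (gene ID 11033, chromosome 7, 897900 to 955407, minus strand) had heights of 61 and 59 at the end of transcription with dexamethasone, against 41 and 50 in controls, a ratio of means of 1.32. The peaks joined into a region from 897218 to 900408. In dexamethasone replicate 2 and control replicate 2 they also reached the window of GET4, a neighbour that ends 1464 bp away. Of 6 regions in all 4 lists in the gene and its flanks, 4 were higher in both dexamethasone lists and none lower. Over the genome 25.9% of such regions were higher and 39.4% lower. The 4 include the end region, for which the gene was chosen. The tallest of the 4, inside the gene at 904438 to 906030, had 107 and 112 against 83 and 77. Upstream of the gene, 957274 to 958502 had 30 and 29 against 22 and 22, and 961775 to 963915 had 52 and 46 against 33 and 40. No list had a peak at the ADAP1 start, while at another of its 4 listed starts, 945767 to 946066, dexamethasone replicate 2 alone had a peak, of height 45.

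**Figure D3:**
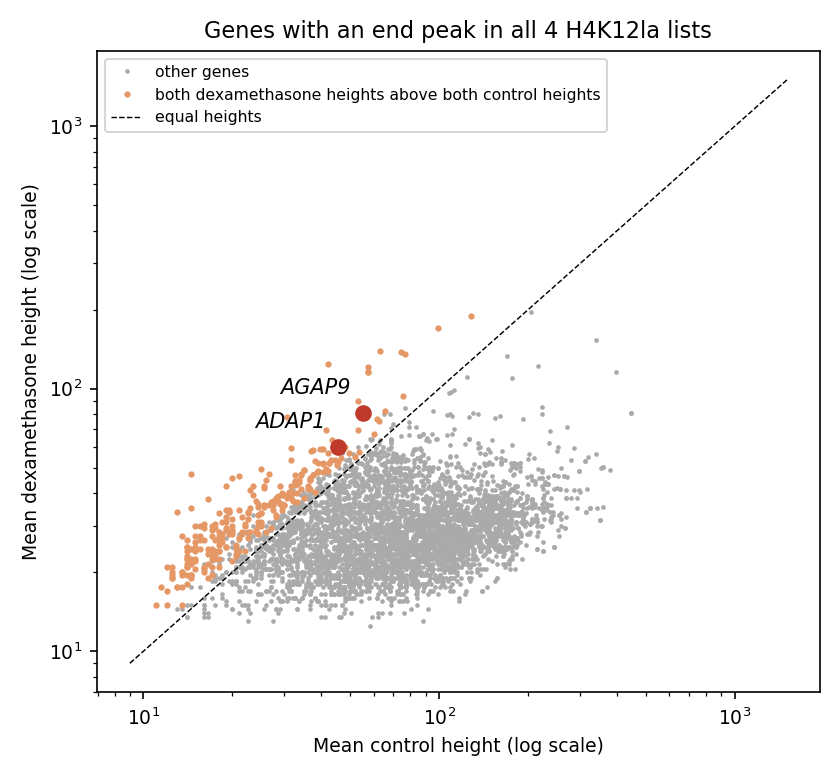
Mean dexamethasone against mean control height of the end peak, on log scales, for 4737 genes whose end peak is in every list; each point is a gene, with the 262 genes higher in both dexamethasone lists in orange. AGAP9 and ADAP1 (red) lie above the line of equal heights.

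The 10 loci together had fewer peaks with dexamethasone. Genes and 20 kb flanks held 83 and 85 peaks in dexamethasone libraries and 125 and 119 in control libraries, or 84.0 ± 1.4 and 122 ± 4.2 (SD, n = 2 each), a ratio of 0.689. The ratio for whole lists was 0.621. At 6 of the genes both dexamethasone lists held fewer peaks than either control list. The tallest peak of the locus was a control peak at 8 genes, where both control maxima were above both dexamethasone maxima, and a dexamethasone peak by the same measure at ADAP1.

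Merged at 1 bp, the peaks around the 10 genes formed 170 regions. Of these 8 (4.71%) were dexamethasone-only, against 3.11% of 184761 regions in the genome, and 20 (11.8%) control-only, against 18%. Of the 41 in all 4 lists, 14 (34.1%) were higher and 12 (29.3%) lower in both dexamethasone lists, against 25.9% and 39.4% in the genome. Because the genes were chosen for such regions, these shares say nothing more about them. Outside the gene ends, 157 regions included 2 dexamethasone-only and 20 control-only, and of 38 in all 4 lists 11 were higher and 12 lower. PTPRU and ADAP1 held most of these 11.

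**Figure D4:**
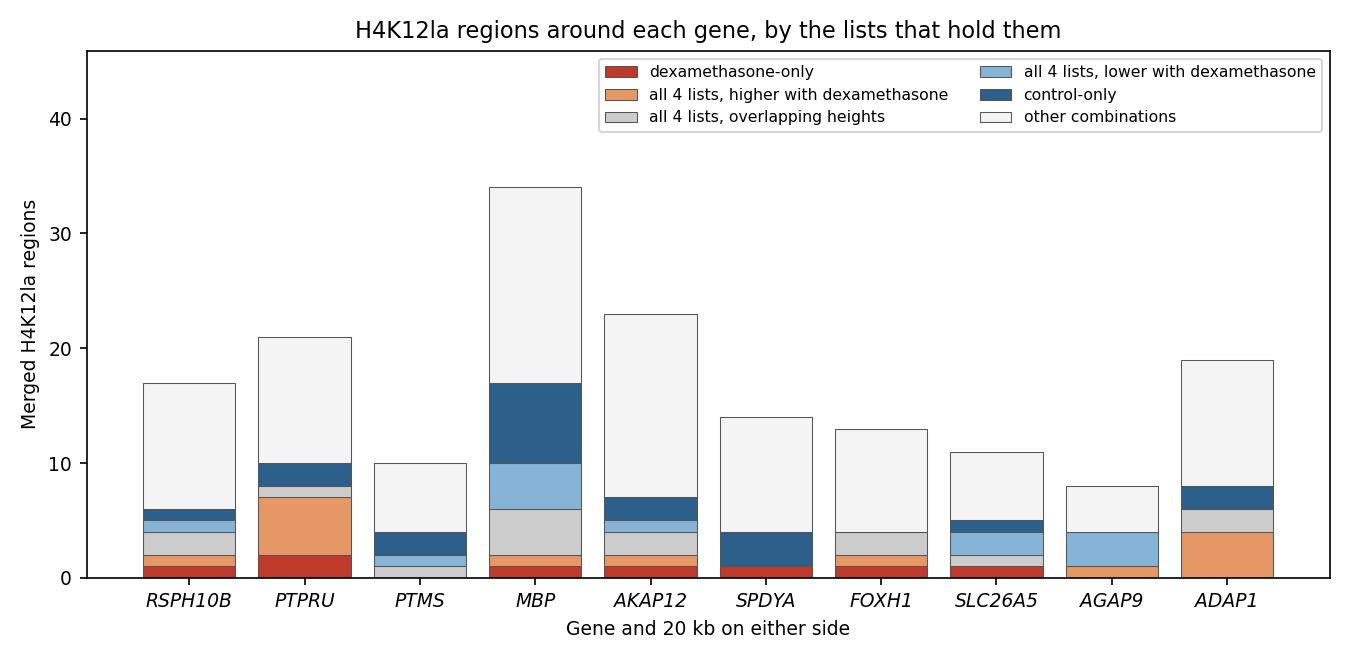
Number of merged H4K12la regions in each gene and 20 kb on either side, stacked by the lists that hold them. Regions higher with dexamethasone (orange) number 5 at PTPRU and 4 at ADAP1, and control-only regions (dark blue) number 7 at MBP.

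Of the 8 dexamethasone-only end regions, 6 were overlapped by no control peak, and 2, at PTMS and AKAP12, were joined to one. How far the window reaches decides several calls. With windows of 0.5 kb the peaks of PTMS, AKAP12, FOXH1 and SLC26A5 fell outside in at least 1 dexamethasone list, leaving 4 genes. With windows of 2.5 kb control peaks entered at 6 genes, leaving PTPRU and SLC26A5. When the summit had to lie in the window, PTMS, AKAP12 and SLC26A5 were lost, leaving 5. With 0.5 kb windows or summits, ADAP1 no longer had an end peak in all 4 lists.

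The gene end that holds the peak is given by class, as a description. Of the 5 dexamethasone-only genes here with a strand entry, 2 had it at the start and 3 at the end of transcription. Of all 113 dexamethasone-only genes with a strand, 50.4% had it at the start alone and 34.5% at the end alone. Of 190 genes higher with dexamethasone the shares were 33.2% and 47.4%. Of 3092 control-only genes they were 75.1% and 10.8%, and of 3890 genes in all 4 lists 59.9% and 23.4%. No test of these shares was run, since the classes come from the same contrast.

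**Figure D5:**
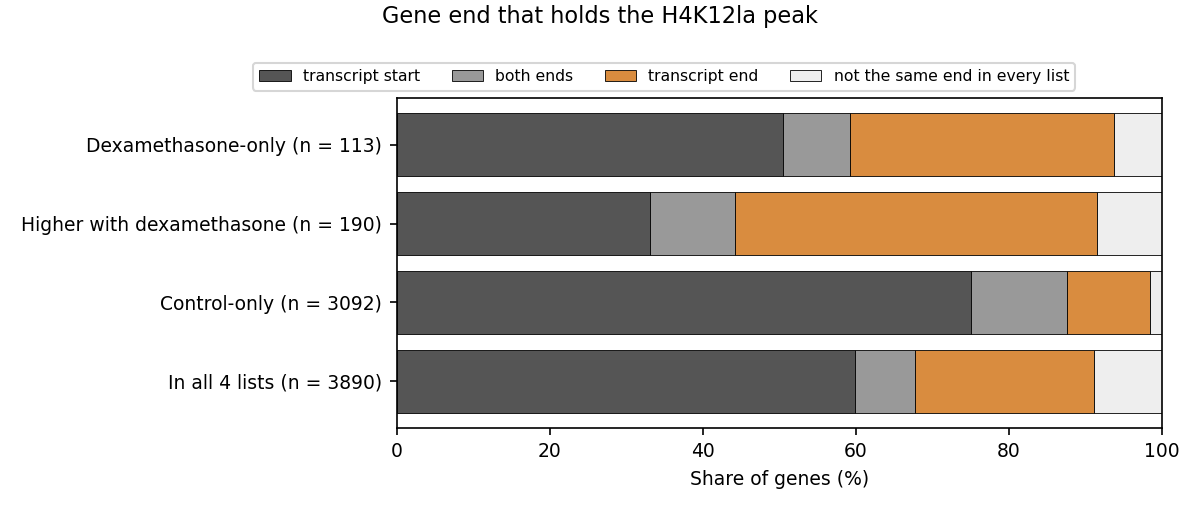
Share of genes (%) with the H4K12la peak at the transcript start, at both ends, at the transcript end or not at the same end in every list, for genes with a strand entry in 4 classes. The transcript end alone accounts for 34.5% of dexamethasone-only and 47.4% of dexamethasone-higher genes, and for 10.8% of control-only genes.

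GR peaks were not used to choose the genes. At the gene ends 0 of the 10 had a GR peak, beside 32.3% of all protein-coding genes, and 5 had one in the gene or 20 kb on either side, where 52.1% did. Among the 153 dexamethasone-only genes, 5 (3.27%) carried one at an end and 34 (22.2%) in the wider window. Of the 262 genes higher with dexamethasone, 23 (8.78%) had one at an end, and of the control-only genes 45.7%. GR was profiled in 1 library, so no test over samples is possible. Row numbers in that list run to 15183 and 8065 rows were analysed, so the absence of a listed peak does not show that GR was absent.

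Of the 7 GR peaks near the genes, several lay at the ends of neighbours. At PTMS, one at 6764213 to 6764599 lay 1764 bp outside the lower-coordinate end, under H4K12la heights of 20 in dexamethasone replicate 2 and 79 and 73 in controls, and another lay at the start of MLF2. At FOXH1, one at 144477969 to 144478402, 2120 bp away, lay at the lower-coordinate end of PPP1R16A, a phosphatase regulator gene. Another was at 144465233 to 144465526. The GR peak near SPDYA was at the TRMT61B start, 19529 bp from SPDYA, and that near ADAP1 was at the COX19 start, 19946 bp away. The single GR peak inside a gene, in SLC26A5 at 103356102 to 103356395, overlapped no H4K12la peak in any list. For MBP the nearest GR peak was 1569320 bp away.

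Families of the 10 genes, listed without regard to how they moved but with earlier results of these data known, gave 108 genes in the gene table. Of these 1 (0.926%) was dexamethasone-only, 21 (19.4%) control-only and 29 (26.9%) in all 4 lists. Over all protein-coding genes the shares were 0.764%, 18.8% and 23.6%. Of the 29, 3 were higher with dexamethasone, where 5.53% of the 4737 genes in all 4 lists were. No list held an end peak for 29 of the 108 (26.9%), against 28.5% of all protein-coding genes. The dexamethasone-only relative was SLC26A8, an anion transporter of sperm, with heights of 22 and 16. The 3 higher ones were PTPRM, a receptor tyrosine phosphatase (31 and 29 against 14 and 26), AGAP1 (38 and 47 against 32 and 26) and AGAP4.

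Genes higher with dexamethasone were among the receptor tyrosine phosphatases (1 of 3 in all 4 lists) and the Arf GTPase-activating proteins (2 of 11). Of 12 cilia genes, 3 were control-only, with RSPH9 at 19 and 24 in controls, and 2 were in all 4 lists. Of 18 receptor tyrosine phosphatases, 11 had no end peak in any list, as had 7 of 9 myelin genes. Of 13 A-kinase anchors, 3 were in all 4 lists, with AKAP9 at 25 and 33 against 90 and 127. Of 7 Speedy genes and CDK partners 3 were in all 4 lists, and CDK2, a partner of SPDYA, had 29 and 29 against 47 and 71. In the Nodal pathway 5 of 13 were control-only, among them SMAD4 (64 and 85 in controls) and ACVR2B (40 and 53). Of 9 SLC26 genes 2 were control-only, among them SLC26A6 (42 and 53), and 2 in all 4 lists, among them SLC26A2 (43 and 37 against 97 and 120). Of 23 Arf GTPase-activating proteins 5 were control-only and 11 in all 4 lists. Of 4 genes listed with PTMS 2 were control-only, and PTMA, the prothymosin gene, had 33 and 30 against 144 and 123.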

How the data were processed

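Per the submitters' processing notes, fastp 0.19.6, Bowtie2 and deepTools were used, with the build GRCh38 (hg38). How peaks were called, and with which settings, is not stated. As deposited by the authors, each H4K12la list gives positions, length, summit and a whole-number signal (height) made from the aligned reads of 1 library, with no scaling stated. The GR list gives positions and lengths. Read depth is unknown, and no interval for counting error is given.

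Only peaks of chromosomes 1 to 22, X and Y entered. Gene positions and, for 15843 of 20037 genes, the strand came from RefSeq tables of GRCh38.p14. Peaks overlapping a gene end by 1 bp within 1 kb were counted, the highest height being taken, and locus counts used 20 kb flanks. Replicates are 2 libraries per group, with no statement that cultures were separate, and the 2 replicate lists of a group shared no row. The members and lists were chosen with earlier results of these data known, and no test was run on the contrast that chose them. Named beside the 10 genes were neighbours within 20 kb, copies, nearest-ranked genes and up to 2 relatives per class of a family. Regions and neighbours quoted at each locus, and relatives beyond that rule, were chosen after their values were seen. Python 3.11.15, numpy 2.4.6, pandas 2.3.3 and matplotlib 3.10.9 were used, and the calls were tested on simulated peaks.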

Additional observations from a re-analysis of the deposited data

How the results depend on the processing

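The count of 8 dexamethasone-only genes was 4 with windows of 0.5 kb, 2 with 2.5 kb and 5 by summit. It stayed at 8 with peaks of height 20 or more, with equal numbers of highest peaks and without any 1 library. Those last settings could not lower it. Leaving out a library loosens the rule, and the cuts by height removed only peaks lower than the 8 genes' end peaks, of 29 or more. Both AGAP9 and ADAP1 stayed higher in all settings run except 0.5 kb and summit, where 1 did. Over all genes, the dexamethasone-only count of 153 was 386 with equal numbers of peaks and 260 to 500 without 1 library, which loosens the rule. The count of 262 higher genes was 148 (0.5 kb), 486 (2.5 kb), 145 (height 20 or more), 116 (equal numbers), 153 (summit), 661 (percentile rank) and 392 to 491 without 1 library. With the replicate number as a block it was 303, and 2 of the 2 genes stayed; the numbers have no stated link, and no fit with a test was run, since the genes were chosen on this contrast. The peak ratio at the loci, 0.689, was 0.757 with height 20 or more, 0.927 with equal numbers, 0.732 without flanks and 0.672 to 0.706 without 1 library. GR peaks were at 1 gene with no flank (33.2% of all genes) and at 8 with 50 kb (63.3%), and at the ends of 2 genes with 2.5 kb windows. Fewer or more peaks reach a window by construction when it is narrowed or widened; for the other settings the cause was not tested. Both ends without strand give no value for which end holds the peak. Depth is unknown and limits every comparison of heights.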

Other observations

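Regions inside genes were split into 3 equal parts along transcription, a division chosen after the loci were seen. In the 6 genes with a strand entry, 4 regions of part 1 were in all 4 lists and 0 of them were higher with dexamethasone, against 2 of 5 in part 2 and 6 of 10 in part 3. Of 28, 29 and 32 regions in parts 1, 2 and 3, control-only ones numbered 7, 5 and 1, and dexamethasone-only ones 3, 1 and 2. MBP had 5, 2 and 0 of the control-only regions, and PTPRU had 3 of the 6 higher regions of part 3. The genes were chosen partly for regions at the end of transcription, which part 3 contains. RSPH10B and SPDYA were chosen for regions at the start, which part 1 contains. Over all genes with a strand, 47.3%, 29.4% and 31.5% of regions in all 4 lists were lower with dexamethasone in parts 1, 2 and 3, and 22.9%, 28.9% and 27.5% higher. Control-only regions made up 19.9%, 16.0% and 14.9%, and dexamethasone-only regions 2.42%, 2.23% and 2.24%. A region in overlapping genes was counted once for each gene.

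Among the other dexamethasone-only genes, the highest by mean percentile was MRPL24, a mitochondrial ribosomal protein gene with heights of 36 and 36 at its start. Its mean percentile of 85.1 lies between those of PTPRU (92.4) and PTMS (84.9). After the 8 genes came SLC39A3, a zinc transporter gene with 30 and 31 at its end of transcription, and RGS10, a regulator of G protein signalling with 32 and 29 at its start. SLC39A3 had a GR peak at an end. By ratio of mean heights over the 4 lists, the genes nearest to AGAP9 included the oocyte linker histone gene H1-8 (27 and 27 with dexamethasone against 20 and 17 in controls) and AGAP1. Those nearest to ADAP1 included the centrosomal gene CEP131 (42 and 45 against 37 and 29) and the receptor gene GPR21 (37 and 42 against 26 and 34).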
